A study of Mus musculus with 7 samples.

Results

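The brush border hydrolases described here are 9 genes: the disaccharidase genes Sis, Lct, Treh and Mgam, the peptidase genes Anpep, Dpp4, Enpep and Mme, and the phosphatase gene Alpi. They were chosen by symbol from a list set with earlier results of these data known. All 9 were found among the 14795 genes of the deposited table. Transcript levels were measured by RNA sequencing in duodena of 3 Ppara lox/lox mice, called controls below, and 4 Ppara I-KO mice. All were males of a predominantly C57BL/6 background on a high-fat diet (HFD). All 7 mice carried loxP sites on both Ppara alleles. The I-KO mice also carried Villin-Cre, a transgene in which the villin promoter drives Cre recombinase in the intestinal epithelium, and the lox/lox mice were littermate controls. According to the labels, mice had no food from 12:00 until 18:00, ate again from 18:00, and were killed at 00:00.

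The brush border is the carpet of microvilli on the luminal side of the absorptive enterocyte. Its hydrolases are anchored in that membrane and cut sugars and peptides into pieces that neighbouring transporters can carry into the cell. Their genes are expressed in the mature enterocyte of the villus, but not all of them only there. Dpp4 is also made by T cells, Anpep by myeloid cells and fibroblasts, and Mme and Enpep by stromal cells. PPARα, the product of Ppara, is a nuclear receptor that binds fatty acids and activates genes of fatty acid oxidation, and the comparison asks how its loss from the epithelium relates to the transcript levels of this digestive surface.

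The 7 libraries held between 20741111 and 25887957 reads on the listed genes. Replicates differed by more than sampling noise, so each library was counted once. The targeted gene Ppara was at 55.3 ± 7.13 CPM in controls (SD, n = 3) and 47.8 ± 15.9 CPM in the I-KO group (SD, n = 4). Its highest value, 69.9 CPM, was in the library labelled I-KO replicate 4, and the deposited gene totals do not separate exons inside and outside the deleted part. The paper states that deletion was checked for this mouse line. Control replicate 3 and I-KO replicate 1 differed from the remaining libraries in marker genes, as described below, and results are given with and without them. The remaining libraries were not alike either. Paneth cell markers summed to 2819 and 1070 CPM in I-KO replicates 2 and 3, against 1630 to 2144 CPM in controls. Stem cell markers summed to 406 and 179 CPM in I-KO replicates 4 and 3, against 246 to 299 CPM in controls. Proliferating crypt markers summed to 586 and 392 CPM in I-KO replicates 2 and 3, against 500 to 572 CPM in controls. The part of this spread in the hydrolase values was not tested. The tissue was whole duodenum, so fewer enterocytes and less RNA per enterocyte cannot be told apart. For Dpp4, Anpep, Mme and Enpep, transcripts of other cell types are counted in the same values. The enterocyte markers summed to between 61795 and 81426 CPM in each library. Of 4 listed ileal genes 2 were in the table. Slc10a2 stayed at or below 0.51 CPM throughout, while Cubn ran from 33.6 to 167 CPM, as described below.

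Promoter sequences of 4 of these genes are shown first because they are the stretches on which factors of enterocyte genes act. Each is the 250 bases before the RefSeq start of transcription on the gene's own strand, from GRCm38.p6, and capitals mark matches to the motifs named below. Sis (chr3:72967864-72968113, minus strand) and Lct (chr1:128328319-128328568, minus strand) are the classical disaccharidase promoters. Mgam (chr6:40628581-40628830, plus strand) and Alpi (chr1:87101607-87101856, minus strand) belong to the 2 members whose levels were most alike across libraries.
Sis: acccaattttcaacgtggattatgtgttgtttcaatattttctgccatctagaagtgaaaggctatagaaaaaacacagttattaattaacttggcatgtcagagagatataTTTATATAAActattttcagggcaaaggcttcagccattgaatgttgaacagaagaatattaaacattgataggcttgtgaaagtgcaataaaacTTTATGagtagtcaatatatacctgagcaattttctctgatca
Lct: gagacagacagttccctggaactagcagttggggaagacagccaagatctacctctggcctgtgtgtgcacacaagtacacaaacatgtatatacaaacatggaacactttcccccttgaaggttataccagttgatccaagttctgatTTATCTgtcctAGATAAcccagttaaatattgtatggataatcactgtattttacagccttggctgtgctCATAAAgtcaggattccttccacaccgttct
Mgam: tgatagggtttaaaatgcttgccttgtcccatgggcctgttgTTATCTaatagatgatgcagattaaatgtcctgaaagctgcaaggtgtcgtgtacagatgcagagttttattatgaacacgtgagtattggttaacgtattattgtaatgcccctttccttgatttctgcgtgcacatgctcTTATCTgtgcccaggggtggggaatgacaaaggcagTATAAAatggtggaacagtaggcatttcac
Alpi: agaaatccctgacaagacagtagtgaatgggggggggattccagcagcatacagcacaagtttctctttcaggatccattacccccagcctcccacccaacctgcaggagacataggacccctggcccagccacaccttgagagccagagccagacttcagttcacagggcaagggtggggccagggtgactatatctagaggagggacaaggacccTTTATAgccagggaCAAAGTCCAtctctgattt

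Short motifs of factors known from enterocyte genes were searched in the 9 windows on both strands. The CDX core TTTATG lay 43 to 38 bases before the start in Sis and 31 to 26 bases before it in Lct, against 10.8% of all 32851 windows of this length. Lct held 2 matches to the site of GATA factors, which reads AGATAA, at 101 to 96 and 90 to 85 bases before the start. Mgam also held 2 of these, at 208 to 203 and 66 to 61 bases, and Dpp4 held 1, while 9.99% of all windows held at least 1.

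The HNF4 site CAAAGTCCA, found in 0.384% of all windows, was in Alpi at 19 to 11 bases and in Treh at 71 to 63 bases before the start. Of the 9 windows, that of Treh alone held AGGTCA, the PPAR core, against 14.0% of all windows. Its direct repeat with 1 base between the cores, which PPAR and RXR bind together, contains that core and was in 0 of the 9 and in 0.0335% of all windows. With so rare a string, its absence from 9 windows tells nothing about PPAR binding. The TATA box motif TATAAA was in 5 of the 9 windows, those of Sis, Mgam, Dpp4, Enpep and Alpi, against 12.4% of all windows. On the gene's own strand it lay 30 to 25 bases before the start in Mgam, 134 to 129 in Sis and 227 to 222 in Dpp4. In Enpep and Alpi the match was on the opposite strand only, at 52 to 47 and 33 to 28 bases. In Sis the motif also matched the opposite strand, at 138 to 133 bases, in overlapping letters. No other matches overlapped in the 4 windows shown. The Anpep and Mme windows start 12849 and 53674 bases from the gene starts of the GENCODE annotation, so other starts of these genes were not searched.

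None of the 9 genes passed the test for a difference between control and I-KO duodena. Among the 13399 genes tested with limma, 4 were called at an adjusted p under 0.05, which is 0.0299% of them, and 0 of the 9 members were among these. At an unadjusted p under 0.05 the count was again 0 of 9, against 635 of all genes (4.74%). The groups did not overlap in 0 of the 9 members, against 6.19% of all genes. Count tests were not run. Fitted differences were above 0 for 5 members and below 0 for 4, with a median log2 fold change of 0.09 for the members and 0.0017 for all genes tested. All 4 disaccharidases and Alpi were fitted above 0 and all 4 peptidases below 0, while 50.6% of all genes were fitted above 0. Every 95% confidence interval of a member included 0, so these directions are not calls. Without I-KO replicate 1, Dpp4, Enpep and Mme turned to 0.048, 0.039 and 0.11, above 0.

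**Figure D1:**
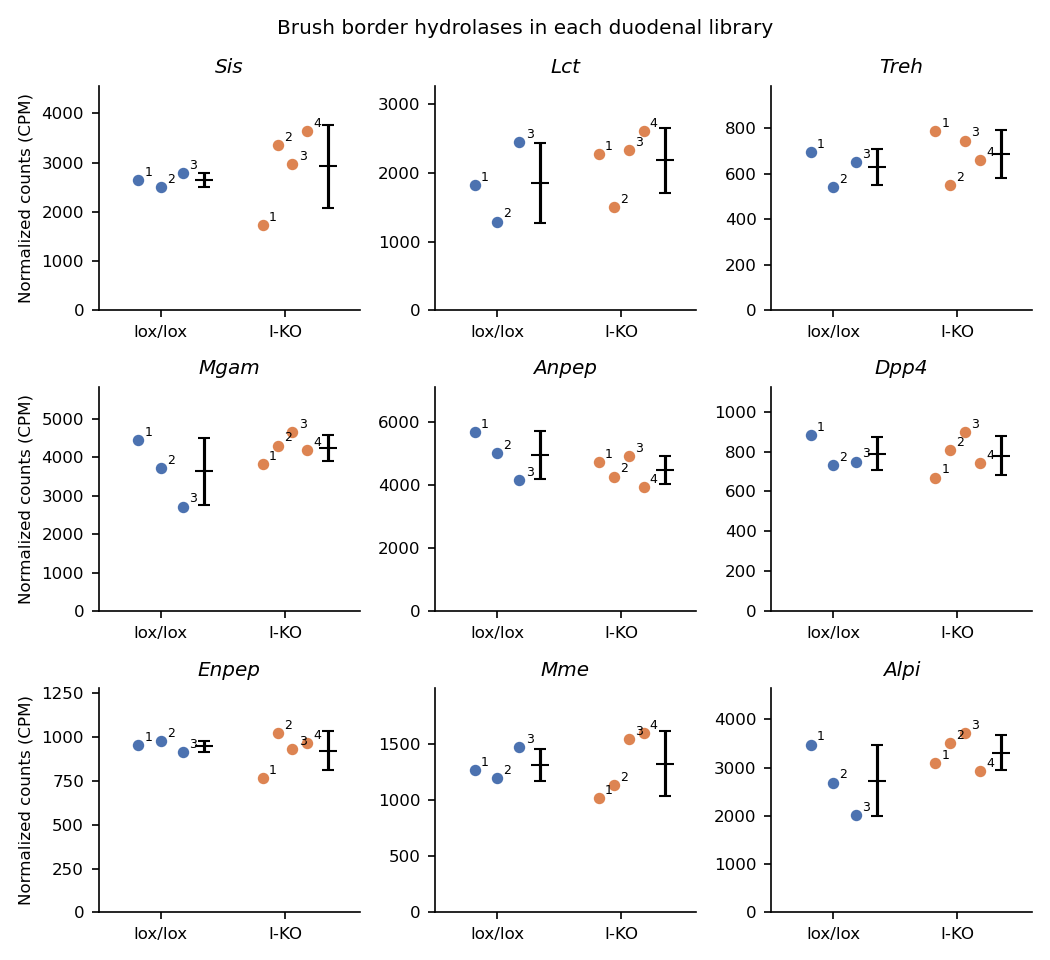
Normalized counts (CPM, linear axes from 0) of each hydrolase gene, with 1 point per library, numbered by replicate, and the mean and SD beside each group (3 lox/lox, 4 I-KO). The groups overlap in all 9 panels, with control replicate 3 lowest for Mgam and Alpi and I-KO replicate 1 lowest for Sis, Dpp4, Enpep and Mme.

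Among the disaccharidases, Sis encodes sucrase-isomaltase, which splits sucrose and the branch points of starch fragments. The gene lies at chr3:72888557-72967863 on the minus strand (GRCm38). Control replicates 1 to 3 held 2643, 2508 and 2786 CPM of Sis, and I-KO replicates 1 to 4 held 1735, 3355, 2979 and 3645 CPM. The lox/lox libraries lay close together with a coefficient of variation of 5.25%, while the I-KO libraries spread over 28.7%, with 3 above and 1 below every control. The log2 fold change was 0.09 (SE 0.23), with a 95% interval of -0.42 to 0.61 (limma adjusted p = 0.98, exact permutation p = 0.829). Without I-KO replicate 1 it was 0.33, and without the library labelled I-KO replicate 4 it was -0.03, with limma adjusted p = 0.981 and 0.978.

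Mgam encodes maltase-glucoamylase, the partner of sucrase-isomaltase in freeing glucose from starch fragments, and lies at chr6:40628831-40769123 on the plus strand. Mgam stood at 4450.2, 3729 and 2722 CPM in the 3 controls, in replicate order, against 3834, 4305, 4659 and 4197 CPM in the 4 I-KO libraries. The 4 I-KO values sat inside or just above the upper part of the control range, and control replicate 3 was the lowest of the 7. Its log2 fold change was 0.25 (SE 0.16, 95% interval -0.10 to 0.60, limma adjusted p = 0.954, exact permutation p = 0.257). Without control replicate 3 it fell to 0.06.

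Lct encodes lactase, the enzyme for milk sugar, whose gene is known to decline after weaning, and lies at chr1:128284756-128328318 on the minus strand. Control replicates 1 to 3 held 1824, 1292 and 2445 CPM of Lct. I-KO replicates 1 to 4 held 2268, 1507, 2336 and 2610.5 CPM. The lowest value of each group was in replicate 2, and the 2 groups overlapped over most of their range. The control spread of 31.1% was the widest of any member in lox/lox mice. The log2 fold change was 0.25 (SE 0.24, 95% interval -0.28 to 0.79, limma adjusted p = 0.954, exact permutation p = 0.429). It was 0.02 without control replicate 2 and 0.48 without control replicate 3.

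Treh encodes trehalase, which splits the fungal and insect sugar trehalose, and lies at chr9:44673233-44686305 on the plus strand. Control replicates 1 to 3 held 694, 542 and 651 CPM of Treh. I-KO replicates 1 to 4 held 788, 549, 745 and 660.4 CPM. As for Lct, replicate 2 was the lowest of each group. Its log2 fold change was 0.12 (SE 0.14, 95% interval -0.20 to 0.44, limma adjusted p = 0.962, exact permutation p = 0.457). Without control replicate 2 it was 0.01.

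The alkaline phosphatase gene Alpi had the largest fitted difference of the 9. Its enzyme removes phosphate from luminal nucleotides and from bacterial lipopolysaccharide, and the gene lies at chr1:87098002-87101606 on the minus strand. Alpi stood at 3478, 2690 and 2008 CPM in the 3 controls, in replicate order, against 3091, 3510.4, 3719 and 2928 CPM in the 4 I-KO libraries. The I-KO values covered the upper part of the control range, with 2 of 4 above every control and 0 below. The log2 fold change was 0.31 (SE 0.17, 95% interval -0.08 to 0.71, limma adjusted p = 0.954, exact permutation p = 0.2). Leaving out control replicate 3, the lowest of the 7, brought it to 0.11.

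Akp3, the neighbouring alkaline phosphatase gene of the duodenum (chr1:87124973-87127912, plus strand), is no member but was also lowest in that library. It reached 612 CPM in control replicate 3 and 1374 to 2068 CPM in the other 6 libraries, with a log2 fold change of 0.32 (SE 0.38, limma adjusted p = 0.962). The Akp3 to Alpi ratio was 0.305 in control replicate 3 and 0.409 to 0.744 elsewhere, so Akp3 was further down in that library than Alpi. The longest coding transcripts of Alpi and Akp3 shared 0 runs of 100 bases, the read length, and their longest shared run was 68 bases.

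Of the peptidases, Dpp4, Enpep and Mme were fitted closest to 0 of all 9 members. Anpep encodes aminopeptidase N, which takes neutral residues off the amino end of peptides, and lies at chr7:79821803-79861059 on the minus strand. Control replicates 1 to 3 held 5679.9, 5007 and 4164 CPM of Anpep, against 4729, 4265, 4917 and 3938 CPM in the 4 I-KO libraries. Of the I-KO libraries, 3 fell within the control range and the library labelled I-KO replicate 4 fell below it. This gave a log2 fold change of -0.14 (SE 0.13, 95% interval -0.43 to 0.14, limma adjusted p = 0.954, exact permutation p = 0.4). It ranged from -0.26 to -0.04 when each library was left out in turn, the outer values being those without control replicates 3 and 1.

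Dpp4 encodes dipeptidyl peptidase 4, which removes dipeptides behind proline and also inactivates incretin hormones, and lies at chr2:62330073-62412231 on the minus strand. Control replicates 1 to 3 gave 883, 734 and 749.9 CPM, and I-KO replicates 1 to 4 gave 669, 806, 898 and 742 CPM. With a log2 fold change of -0.02 (SE 0.12), its 95% interval ran from -0.29 to 0.25, or 0.818-fold to 1.19-fold (limma adjusted p = 0.992, exact permutation p = 0.914). An antisense gene, Gm13561, overlaps 232 exon bases of Dpp4 and has no row in the table. The libraries were made with a stranded kit, but the strand setting of the counting is not given in the sources used here.

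Enpep encodes aminopeptidase A, which removes acidic residues and acts on angiotensin, and lies at chr3:129269175-129332720 on the minus strand. Enpep stood at 955, 977 and 915 CPM in the 3 controls, in replicate order, against 768, 1025, 933 and 967 CPM in the 4 I-KO libraries. Its coefficient of variation was 3.34% in controls and 8.70% over all 7 libraries, the smallest of the 9 members in both. Its log2 fold change was -0.05 (SE 0.11), with the 95% interval from -0.29 to 0.20 (limma adjusted p = 0.978, exact permutation p = 0.857).

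Mme encodes neprilysin, a zinc endopeptidase that cuts many small peptide hormones, and lies at chr3:63241537-63386030 on the plus strand. Control replicates 1 to 3 gave 1269, 1191 and 1473 CPM, and I-KO replicates 1 to 4 gave 1018, 1132, 1542 and 1596 CPM. The I-KO libraries lay on both sides of the controls, 2 above all of them and 2 below, and the group means were 1311 and 1322 CPM. This gave a log2 fold change of -0.01 (SE 0.17, 95% interval -0.39 to 0.37, limma adjusted p = 0.997, exact permutation p = 0.971). Reads were not the limit for any member, since the lowest number behind a value was 12632, for Treh, with a counting error of 0.89%. The smallest p that the 35 splits of 7 libraries allow is 0.0286.

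**Figure D2:**
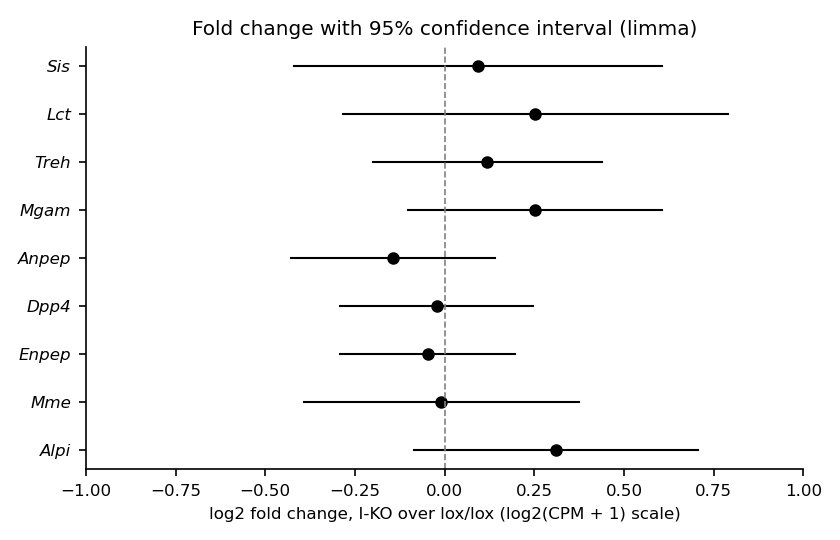
Log2 fold change of each hydrolase gene in I-KO over lox/lox duodena (points) with its 95% confidence interval from limma (bars), on the log2(CPM + 1) scale. All 9 bars cross the dashed line at 0, and the points run from -0.14 for Anpep to 0.31 for Alpi.

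Each confidence interval from limma gives a range for the group difference of 1 gene, estimated from the spread between these few libraries. The intervals were not adjusted for the number of members, so their ends are not limits that exclude larger differences. The upper ends for Enpep, Anpep and Dpp4 were at 1.15-fold, 1.10-fold and 1.19-fold, and their lower ends at 0.817-fold, 0.744-fold and 0.818-fold. Wider intervals belonged to Lct, from 0.821-fold to 1.73-fold, and Alpi, from 0.943-fold to 1.63-fold. For Sis the interval ran from 0.747-fold to 1.52-fold, for Mgam from 0.931-fold to 1.52-fold, for Treh from 0.870-fold to 1.35-fold and for Mme from 0.762-fold to 1.30-fold.

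All 9 genes ranked high in the duodenum once levels were divided by exon length. Among 13922 genes with a length, Alpi ranked between 20 and 37 over the 7 libraries and Anpep between 25 and 38. Mgam ranked between 73 and 117, Sis between 73 and 206, Treh between 105 and 161, and Lct between 92 and 228. The lowest of the 9 was Mme, with ranks between 326 and 573. In lox/lox mice the level per kb of exon was 1197 ± 184 CPM for Anpep, 1166 ± 315 for Alpi, 417 ± 99.7 for Mgam and 354 ± 18.6 for Sis (SD, n = 3). It was 307 ± 38.3 for Treh, 289 ± 90.1 for Lct, 202 ± 6.73 for Enpep, 125 ± 12.9 for Dpp4 and 114 ± 12.6 for Mme. The SDs of neighbours in this order overlapped for Anpep and Alpi, Mgam and Sis, Sis and Treh, Treh and Lct, Lct and Enpep, and Dpp4 and Mme, and did not for Alpi and Mgam or Enpep and Dpp4. In I-KO mice Alpi (1417 ± 157, SD, n = 4) stood above Anpep (1079 ± 107) and Lct (340.3 ± 73.8) above Treh (335 ± 51.5), and the rest kept their order. The order of Dpp4 and Mme depends on the length used, since their ratio in lox/lox was 1.10 per exon length and 0.918 per longest coding transcript, an alternative added after seeing the data.

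**Figure D3:**
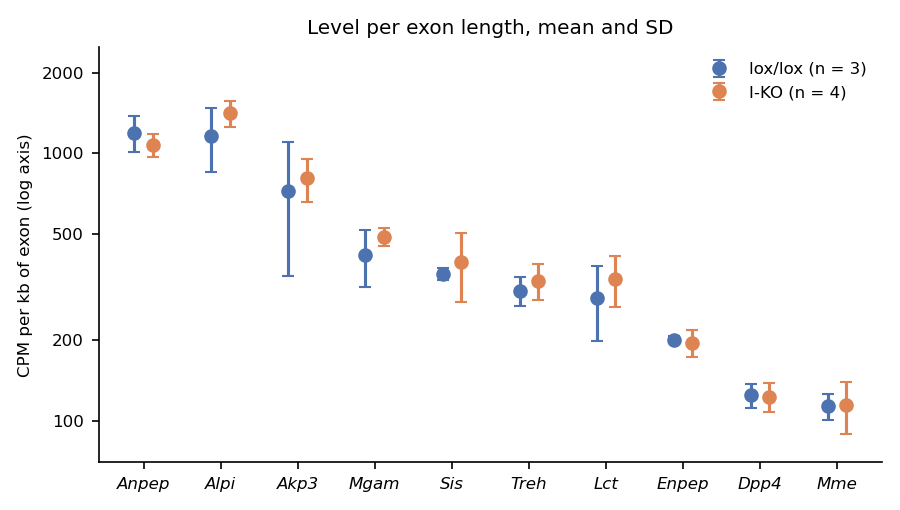
Mean and SD of the level per kb of exon (CPM per kb, log axis) of the 9 hydrolase genes and Akp3, in the order of the lox/lox means, for lox/lox (n = 3) and I-KO (n = 4) mice. Anpep and Alpi sit highest and Dpp4 and Mme lowest in both groups, and the SD bars of the groups overlap for all 10 genes.

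Together the 9 genes took between 1.84% and 2.19% of each library. The sum of the 4 disaccharidases was 8762 ± 782 CPM in controls (SD, n = 3) and 10043 ± 1114 CPM in the I-KO group (SD, n = 4), and that of the 4 peptidases was 7999 ± 746 and 7487 ± 536 CPM. The ratio of these sums, which takes no account of length, was 1.09, 1.02 and 1.18 in control replicates 1 to 3 and 1.20, 1.34, 1.29 and 1.53 in I-KO replicates 1 to 4. The groups did not overlap in this ratio. It was formed with the members' values known and is a description without a test, and the gap between control replicate 3 and I-KO replicate 1 was small beside the spread within each group.

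Within a library the disaccharidases did not move as a block. The Lct to Sis ratio was 1.31 in I-KO replicate 1, where Sis was lowest, and 0.449 in I-KO replicate 2, where Lct was low. The Mgam to Sis ratio ran from 0.977 in control replicate 3 to 2.21 in I-KO replicate 1. Sis was 2.20 times Treh in I-KO replicate 1 and 6.11 times Treh in I-KO replicate 2. These ratios are of CPM and are compared only between libraries.

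**Figure D4:**
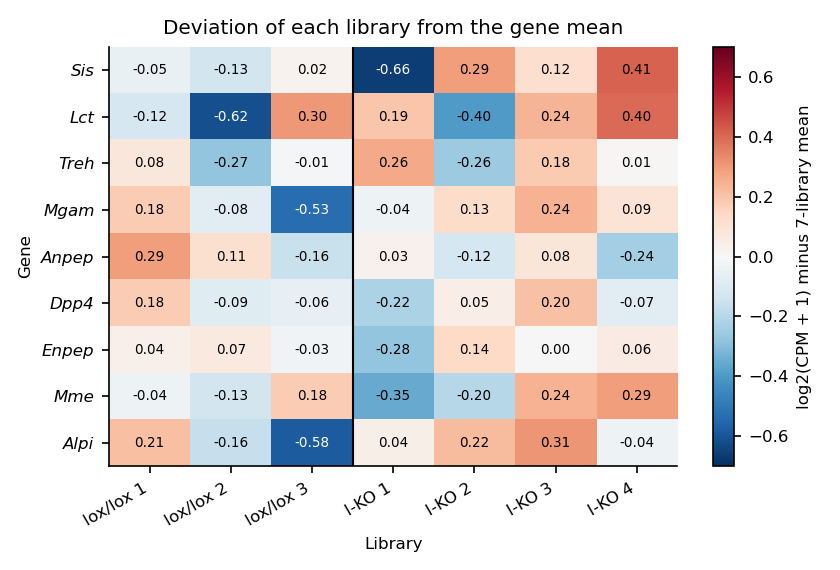
Deviation of each library from the 7-library mean of the gene, in log2(CPM + 1), for the 9 hydrolase genes (rows) in 3 lox/lox and 4 I-KO libraries (columns, parted by the vertical line). The deepest values are single cells, Sis in I-KO replicate 1 (-0.66), Lct in control replicate 2 (-0.62) and Alpi (-0.58) and Mgam (-0.53) in control replicate 3, and no row changes colour cleanly at the line.

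Across the 7 libraries, likeness was measured as the root mean square difference of the deviations shown in the heat map, in log2 units. The closest members were Mgam and Alpi, at 0.0815, followed by Dpp4 and Enpep, at 0.128. Outside the members, the gene closest to Mgam was Slc5a1, the sodium-coupled glucose transporter, at 0.0552. Slc5a1 stood at 4155, 3551 and 2798 CPM in the 3 controls, in replicate order, against 3553, 4328, 4627 and 3929.9 CPM in the 4 I-KO libraries. Like Mgam, it was lowest in control replicate 3 and highest in I-KO replicate 3.

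The closest gene to Alpi was Aldh4a1 (0.057), a proline-degrading enzyme of mitochondria, which was also second for Mgam (0.0654). Dpp4 was closest to Heph, the iron oxidase hephaestin, at 0.0273, the smallest of these differences. Enpep was closest to Ahcyl2 (0.0335), Mme to Atg4c (0.0502), Anpep to Mvp (0.0589) and Treh to Fam169b (0.0674). Sis and Lct had no gene as near, with Ccdc122 at 0.101 and Cyp2j6 at 0.123. The measure is not scaled by spread, and Sis and Lct varied most of the members, with coefficients of variation of 22.1% and 24.7% over all 7 libraries. Ccdc122 was also a low gene, at 0.89 CPM in controls and 1.07 CPM in the I-KO group. Each was the smallest of 13399 genes, in libraries that share their depth and tissue composition, and no test was made of it.

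Control replicate 3 was low not only in Mgam and Alpi but also in genes marking the duodenum, which are named here after their values were seen. Cybrd1, the duodenal iron reductase, was at 16.9 CPM there and between 56.1 and 78.5 CPM in the other 6 libraries. Slc40a1, the iron exporter ferroportin, was at 49.3 against 103 to 162 CPM, and Pdx1, a factor of the proximal duodenum and pancreas, at 13.0 against 18.2 to 25.5 CPM. The 5 duodenal markers summed to 329 CPM against 477 to 567 CPM. Cubn, the vitamin B12 receptor of the distal gut, was at 152 CPM there and at 167 CPM in the library labelled I-KO replicate 4, against 33.6 to 81.9 CPM in the others. Where along the duodenum each piece was cut is not given in the sources used here, and the part of this library in the Mgam and Alpi differences was not tested beyond leaving it out.

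**Figure D5:**
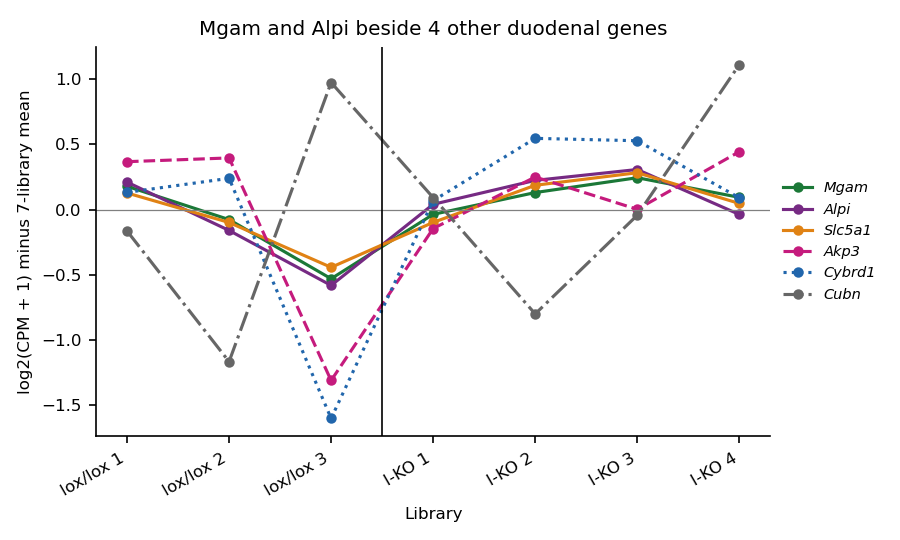
Deviation from the 7-library mean, in log2(CPM + 1), of Mgam, Alpi, Slc5a1, Akp3, Cybrd1 and Cubn in 3 lox/lox and 4 I-KO libraries, with lines that only join the points of a gene. Mgam, Alpi and Slc5a1 nearly coincide and dip in control replicate 3, where Akp3 and Cybrd1 dip further and Cubn rises, and the 6 genes were chosen after their values were seen.

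I-KO replicate 1 was lowest in Sis, Dpp4, Enpep and Mme. In that library 14 of 14 pancreatic acinar markers found in the table were at their highest, with a sum of 433 CPM against 29.9 to 103 CPM in the other 6. It was also highest in 7 of 7 smooth muscle and pericyte markers, with a sum of 1476 CPM against 1028 to 1255 CPM. The same held for 5 of 6 endothelial, 4 of 6 fibroblast, 4 of 6 macrophage and myeloid, and 4 of 7 goblet cell markers. The enterocyte markers summed to 81167 CPM there, near the upper end of the 61795 to 81426 CPM of all libraries. Most of that sum was Apoa4, at 31200 CPM, and Apoa1, at 19138 CPM. The mean log2 level of the 11 markers, which weighs them alike, was 12.14 there and 11.89 to 12.21 over all libraries. Villin (Vil1) was at 3099 CPM, within its range of 2735 to 3383 CPM. Without control replicate 3 and I-KO replicate 1 together, a choice made after seeing the data, 0 of 9 members were called and 3 of all genes were. The log2 fold changes were then 0.36 for Sis, 0.45 for Lct, 0.11 for Mgam, 0.14 for Alpi and -0.29 for Anpep, with limma adjusted p between 0.873 and 0.923 for these 5. Dpp4, Enpep and Mme turned from below to above 0, at 0.014, 0.012 and 0.195.

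The hydrolases were set against the scaffold of the microvillus. The list of brush border structure genes, which build and bundle the actin core and link microvilli at their tips, had 17 genes, 0 of them called and 14 fitted above 0, with a median log2 fold change of 0.13. Villin was left out of the reference because the transgene carries its promoter, and the mean log2 level of the other 16 differed by 0.10 between the groups (exact permutation p = 0.229). Relative to these 16 genes, 0 of 9 members passed an unadjusted exact permutation test. Anpep came nearest, at -0.24 (exact permutation p = 0.0857), followed by Alpi at 0.22 (exact permutation p = 0.2). Myo1a, the brush border myosin, had the smallest unadjusted p of this list and did not overlap between groups, at 1638 to 1845 CPM in controls and 1906 to 2122 CPM in the I-KO group (log2 fold change 0.18, limma adjusted p = 0.954). Vil1 also did not overlap, at a log2 fold change of 0.14 (limma adjusted p = 0.954).

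No other hydrolase of the enterocyte surface was called either. Of 17 listed genes 16 were in the table and 15 were tested, with 0 called, 12 fitted above 0, 3 below, and a median log2 fold change of 0.13. Xpnpep2, an aminopeptidase for bonds next to proline, had the smallest unadjusted p among those above 0, at a log2 fold change of 0.53 (limma adjusted p = 0.954). Its mean rested on I-KO replicate 1, which was at 164 CPM while the other 6 libraries lay between 50.6 and 77.5 CPM. Mep1b, the beta subunit of the metalloprotease meprin, had the smallest among those below 0, at -0.12 (limma adjusted p = 0.954), with 1194 ± 48.7 CPM in controls (SD, n = 3) and 1105 ± 111 CPM in the I-KO group (SD, n = 4).

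The enzymes that finish digestion inside the cell also held no call. Of 19 cytosolic and lysosomal peptidases and glycosidases, 13 were fitted above 0 and 6 below, with a median of 0.06. Hexa, a lysosomal hexosaminidase subunit, did not overlap between groups, at 115 ± 0.596 CPM in controls (SD, n = 3) and 131 ± 9.64 CPM in the I-KO group (SD, n = 4) (log2 fold change 0.18, limma adjusted p = 0.954). Tpp2, a cytosolic tripeptidyl peptidase, had the smallest unadjusted p among those below 0, at a log2 fold change of -0.20 (limma adjusted p = 0.954).

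The transporters that take up the products of these enzymes were 10 genes, 8 fitted above 0 and 2 below, with a median of 0.19 and 0 called. Slc2a5, the fructose transporter, had the only unadjusted p under 0.05 of the list, at 0.022 by limma, and an adjusted p of 0.954. Slc2a5 stood at 185, 150.1 and 127 CPM in the 3 controls, in replicate order, against 194, 204, 189.8 and 185 CPM in the 4 I-KO libraries. The groups touched without overlapping, with a log2 fold change of 0.34 (SE 0.12). Slc1a1, a glutamate and aspartate transporter, had the smallest p among those below 0, at a log2 fold change of -0.26 (limma adjusted p = 0.954).

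Among 15 transcription factors of enterocyte genes 7 were fitted above 0 and 8 below, with a median of -0.0025 and 0 called. Cdx2, a homeobox factor of intestinal identity with the smallest unadjusted p among those above 0, was at 156 ± 6.34 CPM in controls (SD, n = 3) and 169 ± 13.8 CPM in the I-KO group (SD, n = 4), a log2 fold change of 0.11 (limma adjusted p = 0.954). Genes of the villus tip, where enterocytes are oldest, were 6 of 6 fitted above 0 with a median of 0.17 and 0 called. Of these, Apoa1, Apoa4, Nt5e and Klf4 also belong to other lists used here. Nt5e, the surface nucleotidase CD73, had the smallest p at a log2 fold change of 0.35 (limma adjusted p = 0.954). Its mean rested on I-KO replicate 3, at 675 CPM, while the other libraries lay between 277 and 399 CPM.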

How the data were processed

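Duodenal RNA was sequenced with 100 base single reads (TruSeq stranded mRNA). The submitters' processing notes name FastQC 0.11.2, TopHat2 2.0.13, Picard 1.80, HTSeq 0.6.1, edgeR and the mm10 build. The authors deposited 1 table of signal values, counts scaled to an adjusted library size (CPM, 2 decimals), for 14795 genes, and 1 line without a gene name was dropped. All 7 columns were mapped to samples by their titles, and 0 columns belong to other samples.

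Genes above 1 CPM in 3 or more libraries (13399) were tested for a genotype difference in log2(CPM + 1). The model was that of limma (version 3.58.1, R 4.3.3) without covariates, two-sided, with Benjamini-Hochberg adjustment over all genes tested and a threshold of 0.05. The script was tested on simulated data. Single values were compared by a two-sided exact permutation test over 35 splits. Fold changes are on the log2(CPM + 1) scale. The 95% intervals of fold changes come from the limma fit and rest on the spread between libraries. The counting error given for a member covers counting only. The labels number the mice as biological replicates. Coordinates and lengths come from GENCODE M21 (GRCm38), with 13922 symbols matched, and promoters from RefSeq, with 9 of 9 members matched. Reads were estimated from the step between low values. Fewer than 95% of low values lay within 0.1 of a step in 5 libraries, so count tests were not run.

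The members, lists and tests were chosen with earlier results of these data known. From each list of related genes, the gene with the smallest unadjusted p in each direction was named, and for each member its closest gene. Sums or counts are given for some of the marker lists, not for all. Alternatives covered the pseudocount, filter, scaling, replicate block, intensity trend, sample weights, length definition and leaving out libraries. Results for 2 genes are not reported here.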

Additional observations from a re-analysis of the deposited data

Results flagged for a closer look

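In groups of 4 libraries the I-KO values of 60 quantities were searched for a library far from the others, and about 3 would be found by chance, against 3 found. The sum of the 4 peptidases was 8290.0 CPM in I-KO replicate 3 while the other 3 I-KO libraries lay between 7185 and 7244 CPM. The lox/lox libraries covered 7302 to 8786 CPM, so this library lay inside the control range and the other 3 below it. In the same library Myo1a, the brush border myosin, was at 2122 CPM against 1906 to 1930.2 CPM. That library was highest of the 7 in 12 of the 17 brush border structure genes. The summed pancreatic acinar markers were at 433.4 CPM in I-KO replicate 1 while I-KO replicates 2 to 4 lay between 29.9 and 48.7 CPM.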

How the results depend on the processing

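No hydrolase was called under any of the 15 alternative fits, with limma adjusted p of the 9 members between 0.674 and 1.00. The signs of Sis, Dpp4, Enpep and Mme depended on the setting, while those of Lct, Treh, Mgam, Alpi and Anpep held in all 15. Leaving out single libraries moved the log2 fold change from -0.030 to 0.33 for Sis, 0.017 to 0.48 for Lct, 0.015 to 0.22 for Treh, 0.057 to 0.41 for Mgam and 0.11 to 0.50 for Alpi. It ranged from -0.26 to -0.039 for Anpep, -0.094 to 0.061 for Dpp4, -0.10 to 0.039 for Enpep and -0.11 to 0.11 for Mme, with the genes called from 3 to 5 and the members' median from -0.0014 to 0.11. With sample quality weights 12 genes were called, Dpp4 was at 0.041 and Mme at 0.0045. Without lox/lox replicate 3 and I-KO replicate 1, Sis was at 0.36, Dpp4 at 0.014, Enpep at 0.012 and Mme at 0.195. Relative to enterocyte markers in place of structure genes, Sis was at 0.14, Dpp4 at 0.028, Enpep at 0.0034 and Mme at 0.042. The mean log2 level of these 11 markers was itself different by -0.05 in the I-KO group, with 5 fitted above 0 and 6 below. Lowest of them was Fabp1, at a log2 fold change of -0.57 (limma adjusted p = 0.822), without overlap between groups. The part of Fabp1 in these relative values was not tested. The Dpp4 to Mme ratio per length moved from 1.10 to 0.918 with the longest transcript. The cause was not tested. With the replicate number as a block, which leaves out I-KO replicate 4, the library without a partner, 3 genes were called and Sis was at -0.030. Same-numbered libraries correlated at -0.014, 0.184 and -0.0092 in their deviations. These correlations cannot decide whether the numbers pair the samples, since deviations from the mean of so few libraries depend on each other. The median of all genes shifted to -0.03 when columns were scaled to equal totals. EdgeR and DESeq2, planned for recovered reads, were not run. Counting error was at most 0.89% for a member, so depth was not the limit, and the sources of the spread between libraries were not separated.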
